A study of Mus musculus with 7 samples.

Results

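The 8 genes described here encode ligands and receptors of angiopoietin and vascular endothelial growth factor (VEGF) signalling, and were taken by symbol from the 55536 genes of the count matrices: *Angpt1*, *Angpt2* and *Vegfa* (ligands), *Tek* (the angiopoietin receptor Tie2), *Tie1*, *Kdr* (VEGF receptor 2), *Flt1* (VEGF receptor 1) and *Nrp1* (the co-receptor neuropilin 1). All 8 were found. They were measured in hippocampal nuclei of WT C57BL6/J mice and of Arctic48 (Arc) mice. Arc mice are hemizygous for a human APP transgene with the Indiana, Swedish and Arctic mutations and deposit amyloid in the hippocampus. Mice of each genotype drank water (WT-veh, Arc-veh) or PMX205, an antagonist of the complement receptor C5aR1, at 20 μg/ml (WT-PMX, Arc-PMX), and tissue was taken at 10 months of age. The sample labels give 12 weeks of treatment, and the study's own text describes a somewhat shorter course for this cohort. Nuclei were labelled by split-pool barcoding, in which the first-round well carries the sample. Each of the 24 nuclear wells held nuclei of 1 mouse, with 6 wells per group (females F1 to F3, males M1 to M3), so the well is the replicate.

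In the brain, angiopoietin 1 is made by cells around vessels and activates Tek on the endothelium, which quiets the vessel wall, and angiopoietin 2 can oppose it. Tie1 is a partner of Tek with no ligand of its own in the classical scheme. Vegfa drives vessel growth and permeability through Kdr, Flt1 binds Vegfa tightly and acts largely as a decoy, and Nrp1 presents Vegfa to Kdr and also serves semaphorins in axon guidance.

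The 8 genes lie on 5 mouse chromosomes (build mm10): *Angpt1* (ENSMUSG00000022309.9) at chr15:42424723-42676977 on the minus strand, *Angpt2* (ENSMUSG00000031465.6) at chr8:18690263-18741562 on the minus strand, *Tek* (ENSMUSG00000006386.15) at chr4:94739289-94874976 on the plus strand and *Tie1* (ENSMUSG00000033191.14) at chr4:118471191-118490061 on the minus strand. *Vegfa* (ENSMUSG00000023951.17) spans chr17:46016993-46032369 and *Kdr* (ENSMUSG00000062960.10) chr5:75932827-75978458, both on the minus strand. *Flt1* (ENSMUSG00000029648.13) spans chr5:147561604-147726011 on the minus strand and *Nrp1* (ENSMUSG00000025810.9) chr8:128358604-128503363 on the plus strand.

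The 3 receptor genes below, whose CPM was highest in endothelial nuclei, are shown by the stretch just before their start (RefSeq, GRCm38.p6), since one of them, *Flt1*, was also found in microglia of Arc mice. Capitals mark AGGAAG, a form of the site bound by ETS factors, searched on both strands and so also as CTTCCT. They also mark TGACGTCA, the cAMP response element. Other forms of the ETS site, which share only its GGAA core, were not searched. The *Tek* window is chr4:94739039-94739288 (plus strand, 250 bases), the *Kdr* window chr5:75978459-75978705 (minus strand, 247 bases) and the *Flt1* window chr5:147726012-147726261 (minus strand, 250 bases), each read 5′ to 3′ along its gene.
Tek: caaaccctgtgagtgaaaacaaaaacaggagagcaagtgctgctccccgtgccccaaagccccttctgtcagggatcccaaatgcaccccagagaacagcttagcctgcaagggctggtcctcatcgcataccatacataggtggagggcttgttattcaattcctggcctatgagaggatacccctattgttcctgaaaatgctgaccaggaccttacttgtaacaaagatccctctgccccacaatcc
Kdr: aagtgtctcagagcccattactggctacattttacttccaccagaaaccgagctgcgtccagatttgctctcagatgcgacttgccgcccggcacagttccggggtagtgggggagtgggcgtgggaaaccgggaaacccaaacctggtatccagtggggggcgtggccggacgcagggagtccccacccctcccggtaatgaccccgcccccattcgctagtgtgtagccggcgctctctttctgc
Flt1: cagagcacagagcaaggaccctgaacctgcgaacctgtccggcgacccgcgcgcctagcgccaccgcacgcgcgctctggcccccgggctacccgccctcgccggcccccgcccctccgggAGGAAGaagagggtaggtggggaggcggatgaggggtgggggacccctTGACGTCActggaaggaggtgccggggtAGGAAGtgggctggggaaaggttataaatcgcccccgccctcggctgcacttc
The *Flt1* window held AGGAAG at 2 places and TGACGTCA at 1 place. *Tek* and *Kdr* held neither. Of the 6 genes with an entry in the promoter table, *Tie1* and *Nrp1* each had 1 AGGAAG match and *Vegfa* had none. Their windows precede the RefSeq starts and were not cut at the gene spans given above. The *Nrp1* window (chr8:128358823-128359072) and a *Vegfa* window (chr17:46025164-46025413) lay inside those spans. The *Tie1* window (chr4:118489850-118490099) lay partly inside. In the same length before each gene start compared (1 chromosome was left out), 29.5% of 32851 windows held AGGAAG or its reverse. In 1.55% of them TGACGTCA was present. A match says only that these letters are present.

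The 24 nuclear wells held 1150 to 3112 nuclei and 4389302 to 30001858 transcripts each after filtering. *Xist* was at least 410 CPM in wells labelled female (CPM is the transcripts of a gene relative to all transcripts of its cell type or well, scaled to 1e+06, not corrected for gene length, so levels are compared between cell types and groups and not between genes) and at most 7.20 CPM in those labelled male. *App* in neurons ranged from 451 to 574 CPM in WT wells and from 546 to 795 CPM in Arc wells, so this check of genotype overlapped slightly. Of 43886 nuclei, 24720 fell into clusters named as neurons, 5444 as astrocytes, 4729 as oligodendrocytes and 1512 as microglia. A further 1330 were named oligodendrocyte progenitor cells (OPCs), 978 ependymal or choroid plexus, 434 endothelial and 418 fibroblasts. Of the rest, 313 were named pericytes and mural cells and 49 T cells, and 3959 stayed unnamed. The names rest on marker genes that exclude the 8 genes, and the 8 genes were left out of the clustering. Microglia made up 0.963% of nuclei in WT-veh and 6.90% in Arc-veh (means of 6 wells). Only 4 WT-veh and 5 WT-PMX wells had at least 10 microglial nuclei, the minimum for a well to be used.

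*Vegfa* was highest in astrocytes, *Angpt1* was highest in astrocytes in Arc mice and at like levels in astrocytes and fibroblasts in WT mice, and *Angpt2* was low in every cell type. *Angpt1* in astrocytes was 297 ± 169 CPM (mean ± SD over 24 wells, all groups), followed by fibroblasts at 143 ± 97.6 CPM (12 wells) and pericytes and mural cells at 72.1 ± 104 CPM (13 wells). Astrocytes lay above fibroblasts in 9 of the 12 wells that held both, so these neighbours overlapped. With vehicle the WT means were 141 CPM in astrocytes and 149 CPM in fibroblasts, and with PMX205 they were 144 CPM and 143 CPM. In Arc mice the lowest astrocyte well, at 316 CPM, lay above the highest fibroblast well, at 286 CPM, so the lead of astrocytes rested on the Arc wells. Microglia, at 2.20 CPM, and oligodendrocytes, at 6.02 CPM, had little *Angpt1*. A transcript of *Angpt1* was found in 31.6% of astrocyte nuclei and 0.529% of microglial nuclei, whose median depths were 1770 and 1007 transcripts.

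*Angpt2* was highest in fibroblasts, at 32.8 ± 24.9 CPM, then in pericytes and mural cells at 18.4 ± 26.3 CPM and in endothelial nuclei at 16.8 ± 26.2 CPM, and the wells of these 3 neighbours overlapped. It reached 9.32 ± 7.19 CPM in OPCs and 1.47 CPM in astrocytes. The order did not hold when nuclei were named by their highest marker score, which put *Angpt2* at 5.07 CPM in fibroblasts, 5.29 CPM in OPCs and 7.60 CPM in endothelial nuclei.

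*Vegfa* stood in astrocytes at 199 ± 74.4 CPM, and second in OPCs, at 130 ± 58.1 CPM, with astrocytes above OPCs in 20 of 24 wells. Ependymal or choroid plexus nuclei followed at 75.6 ± 62.7 CPM and fibroblasts at 51.1 ± 56.8 CPM. Pericytes and mural cells had 19.5 ± 38.4 CPM, endothelial nuclei 16.8 ± 32.4 CPM and neurons 13.4 ± 3.85 CPM. Among neurons, interneurons had 24.4 ± 9.20 CPM and dentate granule neurons 4.83 ± 2.21 CPM.

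*Tek*, *Tie1*, *Kdr* and *Flt1* were highest in endothelial nuclei. *Tek* stood at 511 ± 200 CPM in endothelial nuclei (17 wells) and at 12.1 CPM in pericytes and mural cells, the next type, with no overlap between the wells of the 2 types. *Tie1* stood at 159 ± 82.4 CPM in endothelial nuclei against 5.75 CPM in pericytes and mural cells, again without overlap. *Kdr* was 174 ± 125 CPM in endothelial nuclei and was higher there than in microglia (12.6 ± 29.4 CPM) in 17 of 17 wells. *Flt1* reached 3611 ± 1946 CPM in endothelial nuclei, where 95.4% of nuclei held a transcript, and was higher there than in pericytes and mural cells (213 ± 189 CPM) in 12 of 12 wells. Microglia followed at 189 ± 164 CPM, again split by genotype. Naming by highest marker score took in more nuclei as endothelial (723 in place of 434) and gave lower endothelial levels, at 209 CPM for *Tek*, 64.8 CPM for *Tie1*, 63.6 CPM for *Kdr* and 1421 CPM for *Flt1*.

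*Nrp1* had a different distribution from the other receptors. Microglia (700 ± 318 CPM), endothelial nuclei (478 ± 188 CPM), neurons (422 ± 39.0 CPM) and fibroblasts (374 ± 177 CPM) had neighbouring levels that overlapped between wells over all groups, whereas OPCs, at 24.7 ± 17.2 CPM, lay below astrocytes (116 ± 18.3 CPM) in 24 of 24 wells. The first place of microglia held in Arc mice, at 938 CPM both with vehicle and with PMX205. In WT mice microglia lay at 403 CPM with vehicle, below the 442 CPM of neurons, and at 365 CPM with PMX205, below the 428 CPM of neurons and the 581 CPM of endothelial nuclei. Among neurons, CA3 pyramidal neurons had 781 ± 58.0 CPM of *Nrp1*, dentate granule neurons 489 ± 38.8 CPM, CA1 pyramidal neurons 306 ± 31.6 CPM and interneurons 146 ± 43.7 CPM, with no well of CA3 below any well of the other 3 classes.

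**Figure D1:**
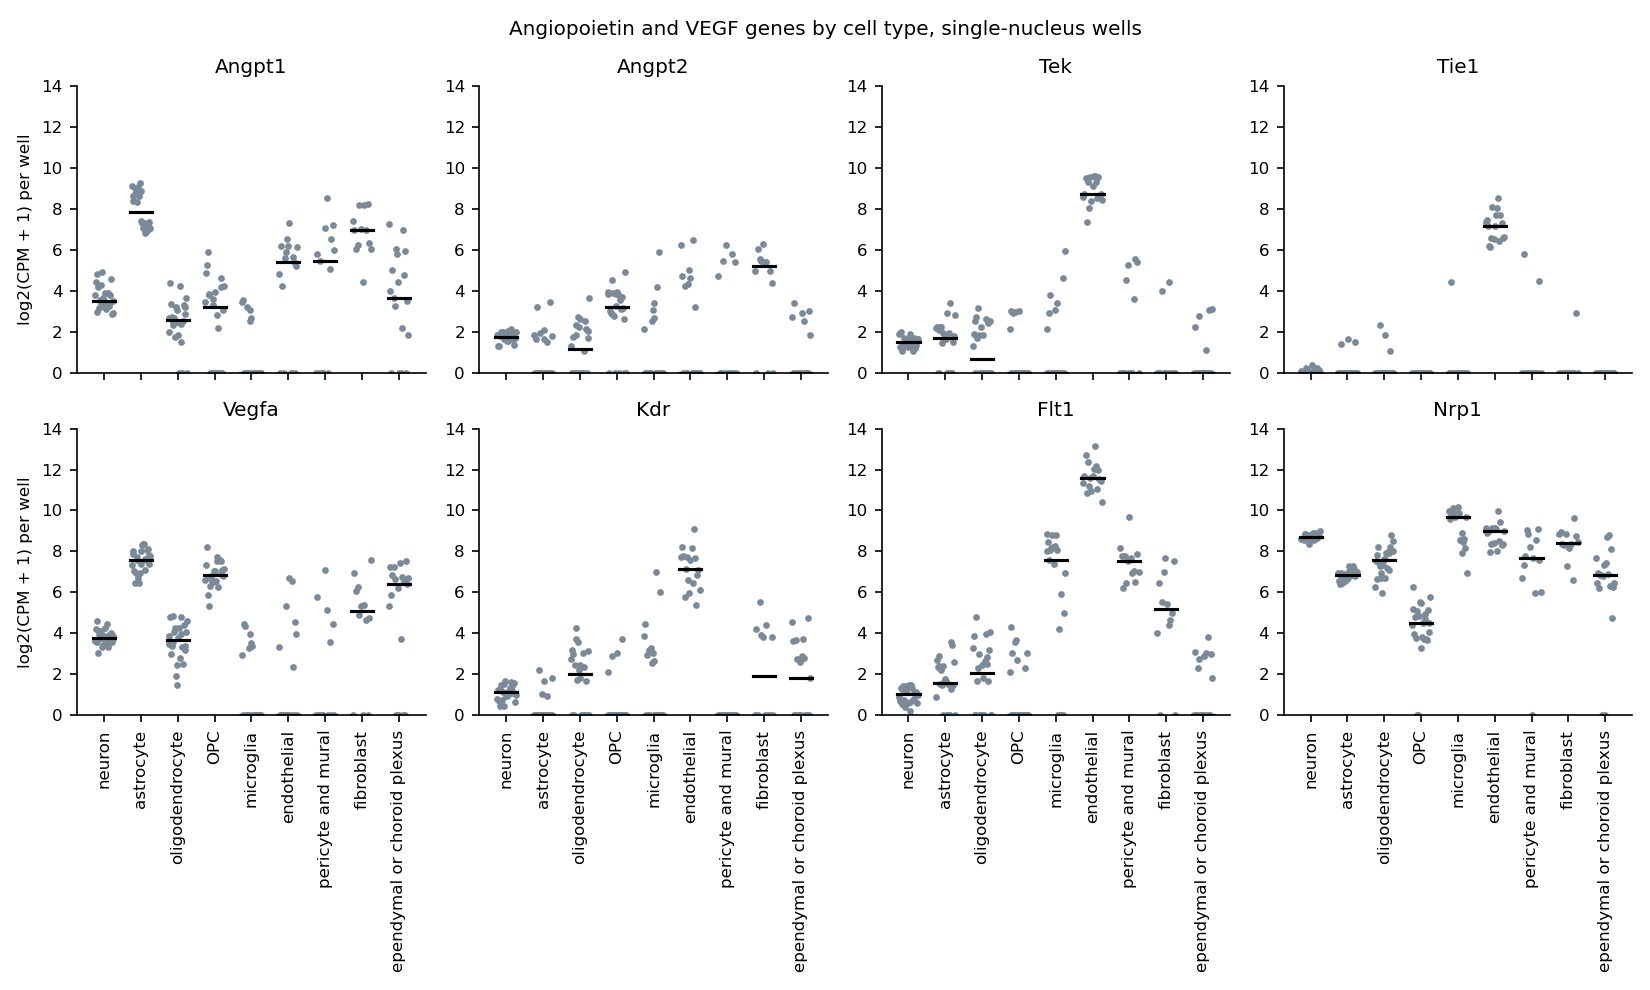
Levels of the 8 genes in 9 cell types, 1 panel per gene; each point is a well with at least 10 nuclei of the type, the vertical axis is log2(CPM + 1) and the bar is the median of the wells. Tek and Tie1 stand clear of every other type in endothelial nuclei, Vegfa is highest in astrocytes, the Angpt1 wells of astrocytes are widely spread and overlap those of fibroblasts, and Nrp1 is spread over most types.

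Neurons were the most numerous nuclei and had the highest median depth (8504 transcripts), and much of the counted RNA of several members lay in nuclei named neurons. Per well, 94.5 ± 2.20% of *Nrp1* transcripts in named nuclei lay in neurons, and 52.4 ± 6.96% of *Vegfa* transcripts lay in neurons against 33.2 ± 6.78% in astrocytes. For *Flt1* 70.6 ± 16.7% lay in endothelial nuclei, and for *Tie1* 83.5 ± 24.8% did. For *Tek* 55.7 ± 20.7% of transcripts were counted in neurons against 36.2 ± 18.9% in endothelial nuclei, for *Kdr* 60.8 ± 22.7% against 22.3 ± 15.8%, and for *Angpt2* 83.4% in neurons (means over wells). The levels behind these neuronal shares were low, at 1.84 CPM for *Tek*, 1.20 CPM for *Kdr* and 2.41 CPM for *Angpt2*. *Tek* was likewise 2.50 CPM in astrocytes, 1.99 CPM in oligodendrocytes and 1.29 CPM in OPCs, so its neuronal counts cannot be told from background and are not read as expression. *Angpt2* was 2.11 CPM in oligodendrocytes, and its neuronal counts are read in the same way. *Kdr* in neurons was below its 4.21 CPM in oligodendrocytes but above its 0.43 CPM in astrocytes in 21 of 24 wells. By class it was 2.24 CPM in CA1 (159 transcripts), 1.496 CPM in dentate granule neurons (110) and 1.01 CPM in CA3 (51). Interneurons had 0.341 CPM (14 transcripts) and the remaining neurons 0.185 CPM (13). Whether these low *Kdr* counts are background was not tested. The share of *Angpt1* transcripts in astrocytes was 28.8 ± 11.1% in WT-veh and 58.4 ± 14.4% in Arc-veh. Over all wells neurons held 3538 *Angpt1* transcripts against 4079 in astrocytes, and in WT-veh 693 against 318. The neuronal level of *Angpt1* was 12.99 CPM. In neurons outside the dentate granule, CA1, CA3 and interneuron classes it was 38.88 ± 23.04 CPM, with no well at 0. In those classes the means were 2.33 to 12.54 CPM. The share of *Flt1* transcripts in microglia was 0.330 ± 0.704% in WT-veh and 29.2 ± 12.0% in Arc-veh. These shares also depend on how many nuclei of each type were recovered.

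The comparison of Arc-veh with WT-veh asked which of these genes differed between the genotypes in each cell type. *Angpt1* rose about 3-fold in astrocytes. *Flt1* and *Nrp1* rose in microglia. *Vegfa* fell in astrocytes and *Nrp1* fell in the nuclei named oligodendrocytes, and each of these last 2 calls was lost under other choices of nuclei or wells. Over 7 cell types, 20 combinations of gene and cell type passed the filter on low counts and were tested (edgeR quasi-likelihood test, Benjamini-Hochberg adjustment over all genes tested in a cell type), and those 5 were called at an adjusted p under 0.05. Of these, *Flt1* in microglia passed the filter only through the Arc wells, where it was high. In the same comparison 12.5% of all genes tested were called in astrocytes, 11.2% in microglia, 10.1% in oligodendrocytes, 1.13% in OPCs and 0.0668% in neurons, and 0% in endothelial and 0% in pericyte and mural nuclei.

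In astrocytes of WT-veh wells F1 to M3, *Angpt1* was 117, 152, 158, 161, 128 and 133 CPM, and it was 171, 157, 135, 159, 131 and 113 CPM in WT-PMX wells. In Arc-veh wells it was 316, 440, 532, 390, 613 and 467 CPM, and in Arc-PMX wells 545, 328, 399, 406, 515 and 452 CPM. All 12 Arc wells lay above all 12 WT wells. With vehicle the mean was 141 ± 18.2 CPM for WT and 460 ± 104 CPM for Arc, and with PMX205 it was 144 ± 21.7 CPM and 441 ± 80.2 CPM (SD, n = 6 each). Arc-veh exceeded WT-veh by 1.67 ± 0.15 on the log2 scale (SE, 3.17-fold, edgeR adjusted p = 7.97e-11). Leaving out any 1 well kept the difference between 1.55 and 1.73. Averaged over both treatments, Arc exceeded WT by 1.62 ± 0.10 (edgeR adjusted p = 1.83e-15), a contrast in which 20.1% of genes tested in astrocytes were called, and Arc-PMX exceeded WT-veh by 1.60 (edgeR adjusted p = 3.08e-10, 11.2% of genes called).

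*Vegfa* in astrocytes was 190, 271, 277, 165, 223 and 218 CPM in WT-veh wells F1 to M3 (224 ± 44.2 CPM) and 188, 211, 104, 87.6, 121 and 165 CPM in Arc-veh wells (146 ± 49.4 CPM). The groups overlapped, with 3 Arc-veh wells within the WT-veh range. WT-PMX wells averaged 260 ± 81.1 CPM and Arc-PMX wells 165 ± 67.3 CPM. Arc-veh was lower than WT-veh by a log2 difference of -0.68 ± 0.19 (edgeR adjusted p = 0.0127), and Arc was lower than WT over both treatments by -0.71 ± 0.13 (edgeR adjusted p = 5.87e-05). Arc-PMX minus WT-veh was -0.54 ± 0.19 and was not called (edgeR adjusted p = 0.0571), and with single wells left out it was called in 7 of 24 fits (edgeR adjusted p from 0.0184 to 0.152). The Arc-veh minus WT-veh call was lost without the well Arc-veh F3 (-0.54, edgeR adjusted p = 0.0560) and when nuclei scored as doublets were kept (-0.49, edgeR adjusted p = 0.170).

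Astrocyte *Nrp1* averaged 129 ± 16.3 CPM (WT) and 108 ± 10.3 CPM (Arc) with vehicle, and 125 ± 17.2 CPM (WT) and 103 ± 17.1 CPM (Arc) with PMX205. Arc-veh minus WT-veh was -0.29 ± 0.14 on the log2 scale and did not pass the test (edgeR adjusted p = 0.215). The mean of both Arc groups was lower than that of both WT groups by a log2 difference of -0.28 ± 0.10 (edgeR adjusted p = 0.0398), a call that DESeq2 did not make (adjusted p = 0.0656) and that held in 13 of the 24 fits that each left out 1 well. *Angpt2*, *Tek*, *Tie1*, *Kdr* and *Flt1* were below the filter in astrocytes.

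**Figure D2:**
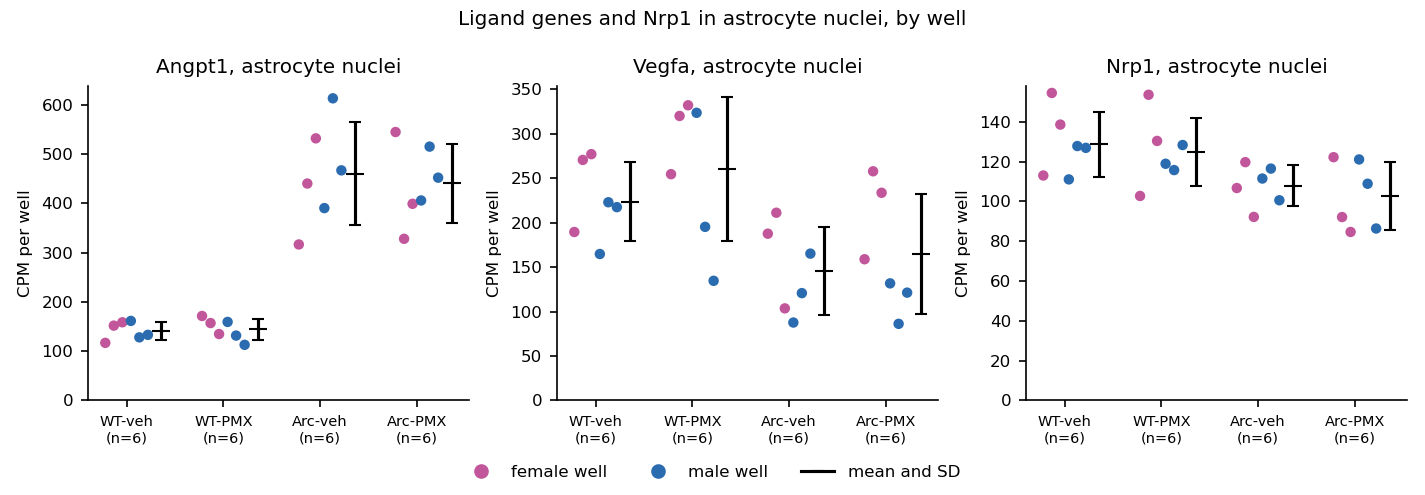
Angpt1, Vegfa and Nrp1 in astrocyte nuclei, in CPM per well (points) for the 4 groups, with the mean and SD of 6 wells as bar and whisker. The 12 Arc wells of Angpt1 (316 to 613 CPM) all sit above the 12 WT wells (113 to 171 CPM), while the wells of Vegfa and of Nrp1 overlap between genotypes.

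Genes of reactive astrocytes moved in the same comparison. *Gfap*, an intermediate filament of astrocytes, rose from a WT-veh mean of 144 ± 28.9 CPM to 1348 ± 399 CPM (log2 difference 3.14 ± 0.21, edgeR adjusted p = 2.69e-14). *C4b* (complement component 4) rose by 2.40 ± 0.28, *Serpina3n* (a serine protease inhibitor) by 4.97 ± 0.62, *Vim* (vimentin) by 2.77 ± 0.36 and *Cd44* (a hyaluronan receptor) by 2.70 ± 0.25 on the log2 scale, with edgeR adjusted p of 3.45e-08, 1.37e-07, 3.33e-07 and 1.70e-10. All WT-veh wells together held 3 transcripts of *Serpina3n* and 17 of *Vim*, so the size of both differences is uncertain. Over the 24 astrocyte wells, the 5 genes whose log2 CPM was most like that of *Angpt1* among 7308 genes were *Enox1* (Pearson r = 0.966), *Cacna2d3* (0.955), *Gm12296* (0.952), *Gm4876* (0.950) and *Fcgr2b* (0.948). These wells share the split by genotype, and once group means were removed the correlations were 0.449, 0.392, 0.612, 0.493 and 0.235.

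The astrocyte nuclei came from 3 clusters that WT and Arc wells filled differently. Cluster SN-2, with *Rorb* and *Plpp3* among its leading genes, held 91.1% of WT-veh and 35.96% of Arc-veh astrocyte nuclei. Cluster SN-12, led by *Gfap* and *Osmr*, held 1.08% and 51.8%, and cluster SN-23, led by *Aqp4* and *Rfx4*, 7.78% and 12.3%. Within SN-2 *Angpt1* was 128 ± 24.1 CPM in WT-veh (107 to 173 CPM) against 250 ± 64.4 CPM in Arc-veh (164 to 336 CPM). In Arc-veh it was 533 ± 110 CPM within SN-12 and 515 ± 251 CPM within SN-23, and in the 4 WT-veh wells with enough nuclei of SN-23 it was 366 ± 143 CPM. Restricted to SN-2, the log2 difference between Arc-veh and WT-veh was 1.01 ± 0.19 for *Angpt1* (edgeR adjusted p = 0.00302) and -0.40 ± 0.21 for *Vegfa* (edgeR adjusted p = 0.597), so the call of *Angpt1* held with a smaller difference and that of *Vegfa* was lost.

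The level of *Angpt1* was also compared between astrocyte nuclei with and without a *Gfap* transcript, after thinning each nucleus to 500 transcripts, at which 1 transcript equals 2000 CPM in a nucleus. With vehicle, 7.03% of WT and 37.7% of Arc astrocyte nuclei then held a *Gfap* transcript, and with PMX205 8.44% and 32.9% did. Among nuclei without *Gfap*, *Angpt1* was 120 ± 29.8 CPM in WT-veh against 360 ± 71.6 CPM in Arc-veh, and all 6 Arc-veh wells lay above all WT-veh wells (two-sided exact permutation test, p = 0.00216, the smallest 6 against 6 wells can give, adjusted p = 0.0130 over 6 tests). Among nuclei with *Gfap* it was 228 ± 173 CPM in WT-veh (5 wells) and 568 ± 211 CPM in Arc-veh (exact permutation p = 0.0216, adjusted p = 0.0625).

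Within Arc-veh, *Angpt1* was higher by 208 CPM in nuclei with *Gfap* than in those without, in 6 of 6 wells (two-sided exact sign-flip permutation p = 0.03125, the smallest 6 wells can give, adjusted p = 0.0625). The difference was 117 CPM in Arc-PMX (5 of 6 wells, exact permutation p = 0.219), 189 CPM in WT-PMX (5 of 5 wells, exact permutation p = 0.0625) and 107 CPM in WT-veh (4 of 5 wells, exact permutation p = 0.3125). None of these 4 passed after adjustment. After thinning, nuclei with *Gfap* held 16 *Angpt1* transcripts over all WT-veh wells and 16 over all WT-PMX wells. Those of Arc-veh held 130 and those of Arc-PMX 91. The WT differences thus rest on few counts. Without thinning, the differences in Arc-veh (270 CPM) and Arc-PMX (238 CPM) each reached an adjusted exact permutation p of 0.0469. *Gfap* with 0 transcripts at this depth does not mark a nucleus as free of *Gfap* RNA.

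**Figure D3:**
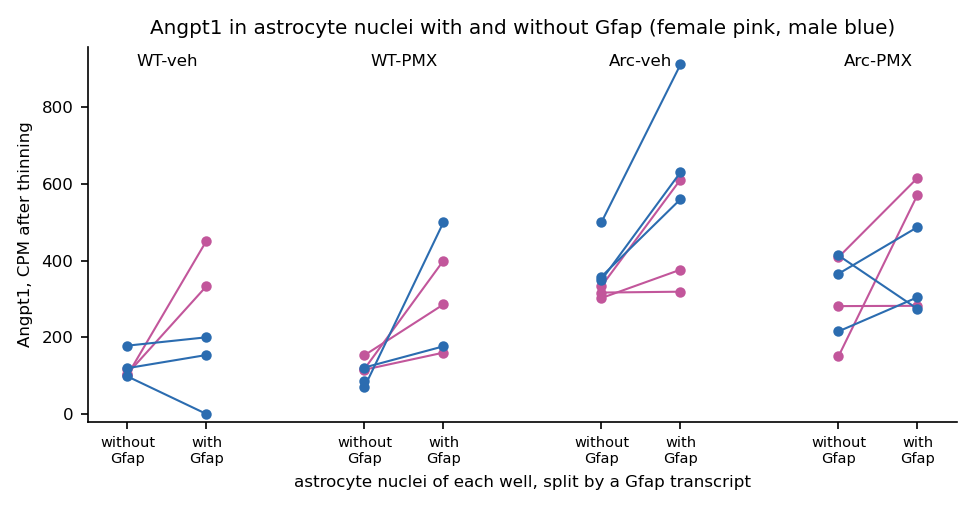
Angpt1 in astrocyte nuclei without and with a Gfap transcript after thinning to 500 transcripts per nucleus, in CPM; each line joins the 2 values of a well with at least 10 nuclei in both classes (pink female, blue male), 1 panel per group. All 6 Arc-veh lines rise from nuclei without to nuclei with Gfap, and the Arc-veh values without Gfap (mean 360 CPM) lie above those of WT-veh (mean 120 CPM).

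Summed markers of vessel and perivascular cells also differed in astrocyte sums. The summed markers of pericytes and mural cells were 204 to 293 CPM in WT-veh against 324 to 502 CPM in Arc-veh wells, with 8 of 12 markers above 0 in Arc-veh. Most of that came from *Atp13a5* (94.8 and 219 CPM), *Notch3* (21.9 and 60.0 CPM) and *Pdgfrb* (123 and 117 CPM), while *Kcnj8* and *Higd1b* were at 0 and *Rgs5* at 0.862 CPM. The endothelial list was 406 to 547 CPM in WT-veh wells against 194 to 343 CPM, mostly *Slco1c1* (439 and 260 CPM), with 9 of 11 markers above 0 and *Cldn5* and *Ly6c1* at 0 in Arc-veh. The fibroblast list was 257 to 337 CPM in WT-veh against 71.8 to 149 CPM in Arc-veh, mostly *Ranbp3l* (262 and 89.3 CPM), with 4 of 7 markers above 0. *Col3a1*, *Lum* and *Slc6a13* were at 0 in WT-veh and in Arc-veh. The microglia list was 39.6 to 80.2 CPM and 76.6 to 117 CPM, with 8 of 9 markers above 0 and *C1qa* at 0 in Arc-veh. Median depth of astrocyte nuclei was 1354 transcripts in WT-veh and 2450 in Arc-veh. The part of these in the *Angpt1* and *Vegfa* differences was not tested.

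In microglia, *Flt1* was at 0 in the WT-veh wells F1 and F2, 30.4 CPM in M1 and 122 CPM in M2, from 3 transcripts in all. In WT-PMX wells it was 0 in F1, F2 and M2, 17.2 CPM in M1 and 59.3 CPM in M3. Arc-veh wells F1 to M3 had 442, 301, 168, 304, 441 and 265 CPM (320 ± 106 CPM), and Arc-PMX wells 464, 255, 354, 190, 270 and 286 CPM (mean 303 CPM). Every Arc well lay above every WT well. Of microglial nuclei, 1.49% (WT) and 23.7% (Arc) held a *Flt1* transcript with vehicle, and 1.55% and 21.7% with PMX205, against 0.533% of astrocyte nuclei. Median depth of microglial nuclei was 724 (WT) and 1016 (Arc) transcripts with vehicle, and 957 and 1093 with PMX205, and that of astrocyte nuclei 1770. Arc-veh exceeded WT-veh by 3.45 ± 0.67 on the log2 scale (edgeR adjusted p = 6.31e-04), 2.78 without the WT-veh well F2 and 4.74 without the WT-veh well M2, the range over all single wells left out. *Flt1* passed the low-count filter through the Arc wells, since the WT wells used held 3 transcripts with vehicle and 2 with PMX205. The p-values of *Flt1* in microglia carry that limit. With so few WT transcripts the fitted value depends on single WT wells. The ratio of pooled counts was 10.8 (95% exact interval 3.66 to 52.7, counting error only) for Arc-veh over WT-veh and 24.3 (6.66 to 202) for Arc-PMX over WT-PMX. The mean Arc minus mean WT difference was 3.88 ± 0.49 (edgeR adjusted p = 4.76e-07, 19.5% of genes tested in microglia called), and Arc-PMX minus WT-veh was 3.41 (edgeR adjusted p = 9.31e-04, 9.95% called).

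*Flt1* is an endothelial gene, so the endothelial markers were read in the same microglial sums. They summed to 94.7 to 610 CPM in WT-veh (4 of 11 markers above 0), 0 to 90.3 CPM in WT-PMX (2 of 11), 14.4 to 53.1 CPM in Arc-veh (9 of 11) and 0 to 42.5 CPM in Arc-PMX (4 of 11). *Cldn5* and *Ly6c1* were at 0 in all 4 groups. The part of endothelial RNA in the *Flt1* difference was not tested.

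*Nrp1* in microglia was 383, 284, 821 and 122 CPM in the WT-veh wells F1, F2, M1 and M2 (403 ± 299 CPM). Arc-veh wells had 913, 809, 880, 934, 1143 and 952 CPM (938 ± 112 CPM), and with PMX205 the means were 365 ± 83.0 CPM (WT) and 938 ± 114 CPM (Arc). The Arc-veh wells overlapped WT-veh only at its highest well, M1. The difference of 1.16 ± 0.25 on the log2 scale (2.23-fold, edgeR adjusted p = 0.00221) ranged from 0.94 to 1.84 when any 1 well was left out, the largest without the WT-veh well M1, and stayed called. Over both treatments Arc exceeded WT by 1.31 ± 0.18 (edgeR adjusted p = 1.66e-06), and Arc-PMX exceeded WT-veh by 1.16 (edgeR adjusted p = 0.00251). Neurons also express *Nrp1*, and summed neuron markers were 575 to 1551 CPM in WT-veh against 514 to 2312 CPM in Arc-veh microglia.

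**Figure D4:**
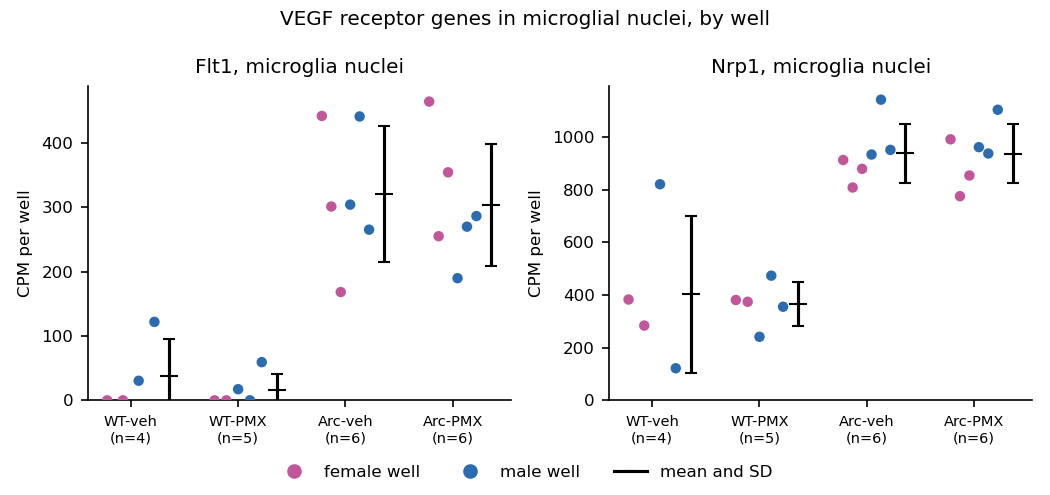
Flt1 and Nrp1 in microglial nuclei, in CPM per well with at least 10 such nuclei (points; 4 and 5 WT wells with vehicle and PMX205, 6 and 6 Arc wells), with mean and SD, the lower whisker cut at 0. Flt1 is 0 to 122 CPM in WT wells and 168 to 464 CPM in Arc wells, and Nrp1 is 776 to 1143 CPM in Arc wells.

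Another cluster, SN-18, had microglial markers highest but oligodendrocyte markers close behind and stayed unnamed. It held 1.42% of WT-veh and 1.99% of Arc-veh nuclei. Its *Flt1* level averaged 37.3 ± 40.4 CPM (WT-veh) and 111 ± 47.1 CPM (Arc-veh), and its *Nrp1* level 254 ± 88.1 CPM and 440 ± 80.7 CPM (6 wells each). In the CD11b-selected single cells, which were not tested, pooled microglial *Nrp1* was 370 CPM (WT, 116 cells) and 701 CPM (Arc, 940 cells) with vehicle, and 161 CPM (WT, 111 cells) and 497 CPM (Arc, 501 cells) with PMX205. *Flt1* in those cells was 259 CPM (WT, 21 transcripts) and 226 CPM (Arc, 162 transcripts) with vehicle, without the gap seen in nuclei. With PMX205 it was 29.3 CPM (WT, 2 transcripts) and 251 CPM (Arc, 108 transcripts). Summed endothelial markers in the same cells were 235 CPM (WT) and 69.7 CPM (Arc) with vehicle, and 117 and 65.0 CPM with PMX205. Summed astrocyte markers there were 1061.5 CPM (WT) and 408 CPM (Arc) with vehicle, and 1141 and 724 CPM with PMX205.

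*Nrp1* in the nuclei named oligodendrocytes was 136, 295, 439, 255, 255 and 366 CPM in WT-veh wells F1 to M3 (291 ± 104 CPM) and 156, 121, 103, 60.9, 158 and 197 CPM in Arc-veh wells (133 ± 47.9 CPM), with PMX205 means of 198 ± 60.0 CPM (WT) and 176 ± 80.9 CPM (Arc). The groups overlapped. The fitted difference was -1.10 ± 0.30 on the log2 scale (edgeR adjusted p = 0.0206), and over both treatments -0.61 ± 0.21 (edgeR adjusted p = 0.0770, 6.27% of genes called). Arc-PMX minus WT-veh was not called, in a contrast where 1.73% of genes were. Most *Nrp1* transcripts of these nuclei lay in 1 cluster, SN-25, in which neuron markers scored second. That cluster held 128 of 1018 oligodendrocyte nuclei in WT-veh but 629 of their 658 *Nrp1* transcripts (95.6%), and 84 of 1285 nuclei in Arc-veh with 290 of 327 transcripts (88.7%). Its share of a well's oligodendrocyte nuclei ran from 4.95% to 50% in WT-veh (median 12.7%) and from 2% to 9.57% in Arc-veh (median 8.09%). In WT-PMX the cluster held 242 of 1249 nuclei, 3.83% to 53.7% of a well (median 8%), with 484 of 519 transcripts, and in Arc-PMX 113 of 1177 nuclei with 443 of 467 transcripts. WT-PMX thus had more nuclei in the cluster than WT-veh in all, a lower median share per well and a lower mean *Nrp1* level.

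Within SN-25 *Nrp1* was 447 ± 41.7 CPM in WT-veh (6 wells) and 428 ± 97.4 CPM in Arc-veh (5 wells), close to its level in neurons. Without SN-25, oligodendrocyte *Nrp1* was 20.2 ± 16.3 CPM in WT-veh against 20.2 ± 6.57 CPM in Arc-veh, and it no longer passed the filter for a test. Summed neuron markers in the oligodendrocyte sums were 4055 to 13788 CPM in WT-veh against 3076 to 5413 CPM in Arc-veh wells. The 2 highest wells, F3 and M3 of WT-veh, were also those with the fewest oligodendrocyte nuclei in that group (30 in the smaller), and without both the difference was -0.88 (edgeR adjusted p = 0.119).

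In endothelial nuclei none of the receptors was called. There, 17 wells (with vehicle 3 WT and 5 Arc, with PMX205 4 WT and 5 Arc) could be used and *Tek*, *Tie1*, *Kdr*, *Flt1* and *Nrp1* were tested. *Tek* was 427, 386 and 347 CPM in the WT-veh wells M1, F2 and M2, and 338, 259, 546, 755 and 782 CPM in the Arc-veh wells M1, F2, M2, F3 and M3. The WT-veh range lay inside the Arc-veh range. *Flt1* was 2747, 2932 and 1375 CPM in those WT-veh wells and 1968, 2357, 3325, 3095 and 4147 CPM in those Arc-veh wells. *Tie1* averaged 117 ± 36.7 CPM in WT-veh against 162 ± 77.2 CPM in Arc-veh.

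The log2 difference between Arc-veh and WT-veh was 0.45 ± 0.42 for *Tek*, 0.43 ± 0.43 for *Tie1*, 0.55 ± 0.59 for *Kdr*, 0.33 ± 0.47 for *Flt1* and 0.26 ± 0.43 for *Nrp1* (edgeR adjusted p = 0.999 for each). With intervals of 2 SE that ran from -0.40 to 1.29 for *Tek* and from -0.63 to 1.73 for *Kdr*, a change of about 2-fold upward could not be told from none at this depth. None of the 5 had an unadjusted p under 0.05 in this contrast, and DESeq2 called none. The mean Arc minus mean WT difference was between -0.05 for *Tie1* and 0.19 for *Kdr*, in a contrast where 0% of genes were called in endothelial nuclei. Neuron markers were 502 to 11400 CPM in these endothelial sums, and their part in these values was not tested.

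**Figure D5:**
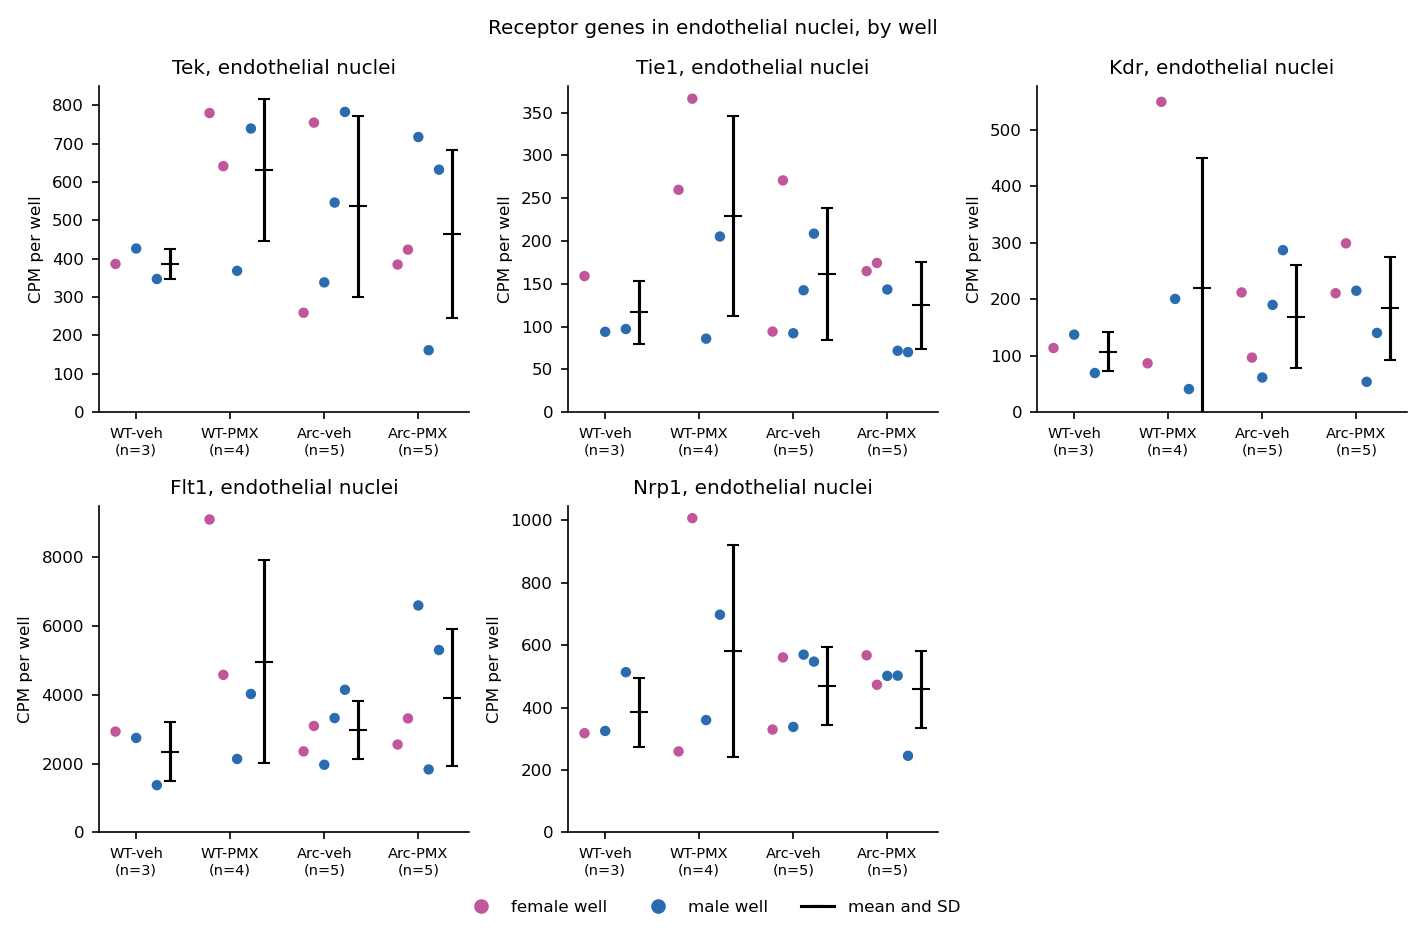
Tek, Tie1, Kdr, Flt1 and Nrp1 in endothelial nuclei, in CPM per well with at least 10 such nuclei (points; 3 and 4 WT wells with vehicle and PMX205, 5 and 5 Arc wells), with mean and SD, whiskers cut at 0. The groups overlap in all 5 panels, for example Tek at 347 to 427 CPM in WT-veh against 259 to 782 CPM in Arc-veh.

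In neurons, 7 of the 8 genes were tested (all but *Tie1*) and none was called between Arc-veh and WT-veh by edgeR or DESeq2, with 0 unadjusted p under 0.05. *Nrp1* differed by -0.14 ± 0.08 on the log2 scale between Arc-veh and WT-veh, *Vegfa* by -0.04 ± 0.19 and *Angpt2* by 0.18 ± 0.20. *Angpt1* differed by 0.44 ± 0.35 from a WT-veh mean of 11.2 ± 6.28 CPM (edgeR adjusted p = 0.761). Over both treatments it was 0.52 ± 0.24 (edgeR adjusted p = 0.690), in a contrast where 0.167% of genes were called, and was called only when no filter on low counts was used (0.51, edgeR adjusted p = 6.44e-04). *Gfap*, an astrocyte gene, was also higher in the neuron sums of Arc-veh, by 2.28 ± 0.37 (edgeR adjusted p = 0.0109).

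*Vegfa* in OPCs was 148 ± 34.7 CPM in WT-veh against 98.6 ± 18.3 CPM in Arc-veh, a log2 difference of -0.55 ± 0.28 that did not pass the test (edgeR adjusted p = 0.574). Over both treatments it was -0.49 ± 0.20 (edgeR adjusted p = 0.275, 2.45% of genes called in OPCs). *Nrp1* in pericytes and mural cells differed by -0.16 ± 0.94, with an interval of 2 SE from -2.03 to 1.72, and the mean Arc minus mean WT contrast called 0% of genes there. For combinations below the filter, 40 exact permutation tests over 7 genes gave 0 calls after adjustment and 3 with an unadjusted p under 0.05. These were *Angpt1* in OPCs (26.5 CPM in Arc-PMX, 3.32 CPM in Arc-veh, exact permutation p = 0.00433, adjusted p = 0.173), *Angpt1* in endothelial nuclei (23.4 CPM in Arc-PMX, 85.0 CPM in Arc-veh, exact permutation p = 0.0317, adjusted p = 0.433) and *Kdr* in oligodendrocytes (8.64 CPM in Arc-veh, 1.67 CPM in WT-veh, exact permutation p = 0.0325, adjusted p = 0.433).

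The effect of PMX205 was read in Arc mice as Arc-PMX minus Arc-veh. None of the 20 tests was called by edgeR or DESeq2, and none had an unadjusted p under 0.05. Over all genes, 0.0137% were called in astrocytes, 0.0323% in OPCs, and 0% in each of the endothelial, pericyte and mural, neuron, oligodendrocyte and microglia fits. In astrocytes *Angpt1* differed by -0.07 ± 0.13 on the log2 scale (interval of 2 SE from -0.33 to 0.19) and *Vegfa* by 0.13 ± 0.19 (-0.24 to 0.51). In microglia *Flt1* differed by -0.04 ± 0.25 (-0.53 to 0.45) and *Nrp1* by -0.00 ± 0.17 (-0.33 to 0.33). These 4 intervals lie within a 2-fold change either way and do not show equality. In WT mice PMX205 gave no call either (edgeR, 20 tests, 0 with an unadjusted p under 0.05), and no difference between its effects in the 2 genotypes was called (0 of 20, 1 with an unadjusted p under 0.05, *Nrp1* in oligodendrocytes). In both contrasts edgeR called 0% of all genes tested in each of the 7 cell types, with 13 to 501 genes at an unadjusted p under 0.05 in the first and 14 to 515 in the second, so the lack of calls was not particular to the 8 genes. Between sexes 0 of 20 were called and 3 had an unadjusted p under 0.05, the lowest adjusted p being that of *Vegfa* in astrocytes, lower in males by a log2 difference of -0.51 (edgeR adjusted p = 0.147). Of all genes, the comparison of sexes called 0.151% in astrocytes, 0.0683% in endothelial nuclei, 0.127% in pericytes and mural cells, 0.0668% in neurons, 0.0925% in oligodendrocytes, 0.0969% in OPCs and 0.134% in microglia.

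Of a list of 41 other genes of the pathway, 15 were tested in astrocytes between Arc-veh and WT-veh, of which 1 rose and 0 fell (12.5% of all genes called, median -0.11 against 0.01 over all genes tested). The one was *Plxnd1*, a semaphorin receptor, at 2.12 ± 0.41 on the log2 scale (edgeR adjusted p = 2.00e-04). Over both treatments *Plxnd1* and *Plxna2*, another plexin (0.59), were higher and the lymphatic growth factor *Vegfc* (-0.86, edgeR adjusted p = 0.0238) and *Pik3r1*, a regulatory subunit of PI3-kinase (-0.26), were lower in Arc. In microglia 8 were tested, 1 rose and 2 fell (11.2% of all genes called, median 0.15 against 0.01). *Hif1a*, the hypoxia-inducible transcription factor subunit, rose by 3.62 ± 0.48 (edgeR adjusted p = 2.99e-06), while *Eng* (endoglin, -2.25 ± 0.52, edgeR adjusted p = 0.00359) and *Plxna4* (a neuropilin partner, -0.82 ± 0.21, edgeR adjusted p = 0.00891) fell. *Eng* is also an endothelial gene, and the part of endothelial RNA in its fall was not tested. Over both treatments *Nrp2* (0.99) was higher and *Itgav* (-0.56) lower as well.

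Among the 12 pathway genes tested in oligodendrocytes, 0 rose and 2 fell (10.1% of all genes called, median -0.07 against 0.04): *Plxna2* (-0.99 ± 0.23) and *Plxna4* (-0.91 ± 0.25), with edgeR adjusted p of 0.0108 and 0.0214. Both come from the sums in which neuron markers were 4055 to 13788 CPM in WT-veh wells and 3076 to 5413 CPM in those of Arc-veh, with cluster SN-25 included, and the part of neuronal RNA was not tested. In neurons 25 were tested, and *Notch1*, a receptor that restrains endothelial sprouting, was the only call (-1.68 ± 0.32, edgeR adjusted p = 0.0329; 0.0668% of all genes called, median 0.03 against 0.01). In OPCs 12 were tested, with no call between Arc-veh and WT-veh (1.13% of all genes called) and *Epas1* (a hypoxia-inducible factor) lower over both treatments (-0.70, edgeR adjusted p = 0.0358). None of the 14 tested in endothelial nuclei or of the 4 in pericytes and mural cells was called (0% of all genes in both, medians 0.32 and 0.54, against 0.01 and -0.14).

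Across 10 cell types with pooled counts, 16184 genes were ranked by how like their log2(CPM + 1) was to that of each member. This is a description over points that share libraries. Among the 10 types were T cells (49 nuclei), where 1 transcript of *Tie1* made 18.5 CPM. *Angpt1* was most like *Fstl1* (r = 0.952), *Zbtb7c* and *Proca1*, *Angpt2* like *Tgfb1i1* (0.981), *Akap12* and *Ext2*, and *Vegfa* like *Spsb4* (0.930), *Gm4876* and *F630040K05Rik*. *Tek* was most like *Erg* (0.968), *Gm20532* and *Podxl*, and *Tie1* like *Adgrl4* (0.971, one of the markers that named endothelial nuclei), *Egfl7* and *Arhgef15*. *Kdr* was most like *Col6a6* (0.958), *Fosb* and *Nos3*, *Flt1* like *Eng* (0.973), *Nampt* and *Clec2d*, and *Nrp1* like *Clip1* (0.954), *Arid1b* and *Snapc4*.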

How the data were processed

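Single nuclei and CD11b-selected single cells of hippocampus were barcoded in 48 first-round wells and sequenced as 7 sublibraries, each of which mixes all wells. Groups were therefore taken from the deposited sample sheet by first-round well, and each well's transcripts were added up across the 7 sublibraries. The study left out a WT sample that proved to carry the transgene, and the sources used here do not name its well. The authors made the deposited counts, unique transcripts per barcode and gene, with the Parse pipeline on mm10, after bcl2fastq per the submitters' processing notes, and the tables hold all barcodes unfiltered.

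Nuclei with over 300 transcripts, over 400 genes, under 50000 transcripts and under 1% mitochondrial transcripts were kept. Nuclei with a Scrublet score over 0.25 were removed, which left 43886 of 45138. Clusters (scanpy 1.11.5, 2000 variable genes without the 8 members, 30 principal components, 15 neighbours, Leiden resolution 1.5) were named from marker lists. The thresholds for naming were chosen with the clusters in view. Across the sublibraries, 4216 barcode combinations occurred in at least 2. Counts were summed per well and cell type (at least 10 nuclei) and tested with edgeR 4.0.16 (quasi-likelihood, TMM, filterByExpr, sex as covariate, all 4 groups in 1 fit, R 4.3.3), with DESeq2 1.42.0 as an alternative, and p-values were adjusted over all genes of a cell type. An adjusted p under 0.05 was called. Each nuclear well is 1 mouse. Single-cell wells pool 2 to 3 mice and were described only. The text names all 8 members, pathway-list genes that passed the test, and the genes most like each member by correlation. The members and lists were chosen with earlier results of these data known. Intervals on counts cover counting error only.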

Additional observations from a re-analysis of the deposited data

How the results depend on the processing

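Calls of *Angpt1* in astrocytes and of *Flt1* and *Nrp1* in microglia between Arc-veh and WT-veh held in every alternative run, and none reversed. *Vegfa* in astrocytes was -0.49 with doublets kept and -0.40 in cluster SN-2 alone (an alternative chosen after seeing the data), with single wells left out it ranged from -0.78 to -0.54, and the call was lost in the first 2 and without Arc-veh F3. *Nrp1* in oligodendrocytes was -0.88 without WT-veh F3 and M3 and -0.80 with nuclei named by highest marker score, and ranged from -1.26 to -0.95 with single wells left out. Its call was lost in the first 2 and without WT-veh F2, WT-veh F3 or Arc-veh M1. Without cluster SN-25 (also chosen after seeing the data) it fell below the low-count filter and gave no value. The difference of *Angpt1* between nuclei with and without *Gfap*, unthinned, was 270 CPM for vehicle and 238 CPM for PMX205 in Arc mice, and Arc-veh minus WT-veh among nuclei with *Gfap* was 259 CPM, each then past the threshold. Thinned, that last difference was 340 CPM and did not pass, ranged from 272 to 396 CPM with single wells left out, and passed without Arc-veh F1. Naming by highest marker score gave 5.07 CPM of *Angpt2* in fibroblasts and, in endothelial nuclei, 209 CPM of *Tek*, 64.8 CPM of *Tie1* and 1421 CPM of *Flt1*. Under it neurons held 73.4% of *Angpt2*, 44.3% of *Vegfa* and 84.3% of *Nrp1* transcripts. The cause of these changes was not tested. The deviations of wells with the same number had a median r of 0.0538 in astrocytes (-0.147 to 0.269 over 36 pairs), 0.0759 in neurons (-0.211 to 0.434) and 0.0542 in oligodendrocytes (-0.197 to 0.512), against 0.0273, 0.0451 and 0.00661 for other numbers of the same sex. Since not every pair was over 0.1, the numbers were not taken as pairs, and a fit with the replicate block gave 5 calls among the members between Arc-veh and WT-veh and 0 for PMX205 in Arc mice. Only 17 wells for endothelial nuclei and 13 for pericytes and mural cells had the 10 nuclei needed, which limits those fits.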
